A study of Mus musculus with 12 samples.

Results

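Primary mouse embryonic fibroblasts, which are early cultures of embryonic connective tissue, that lack both Blm and Recql by their label were compared with wild type (WT) fibroblasts across all genes with enough reads to test. The comparison used the 3 libraries labelled Blm -/- Recql -/- (double knockout, double KO) and the 3 labelled WT, which are 6 of the 12 libraries of the study, and it covered 14876 of the 24054 genes in the count table. The other 6 libraries, 3 labelled Blm -/- (Blm KO) and 3 labelled Recql -/- (Recql KO), entered the same model and were used to ask whether a gene in double KO also differed from each single KO. All 4 groups were grown without treatment in medium with 10% fetal bovine serum, at low oxygen (3% O2) and 5% CO2. Libraries were made from polyadenylated RNA with a stranded kit. The labels give no mouse strain, embryo age, sex, passage or allele design, and leave unsaid whether replicates are different embryos or cultures. The p-values therefore measure only the spread among these libraries, which may be partly technical.

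Blm and Recql encode BLM and RECQL1, members of the RecQ family of DNA helicases, enzymes that unwind DNA in the 3' to 5' direction. BLM works with topoisomerase III alpha and the RMI proteins to take apart linked recombination intermediates without crossing over, and its loss in people causes Bloom syndrome, with many sister chromatid exchanges and a high risk of cancer. RECQL1 is an abundant RecQ helicase that restores reversed replication forks. Neither protein is a transcription factor.

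The targeted genes were examined first. Levels are given in CPM, counts scaled to library size with edgeR's trimmed mean of M values (TMM). Blm (mm10 chromosome 7, 80454733 to 80535119) stood at 21.9, 21.7 and 18.6 CPM in the WT libraries and at 5.66, 6.99 and 3.85 CPM in the double KO libraries. All 3 double KO libraries lay below all 3 WT libraries. The log2 fold change of double KO against WT, with its standard error (SE) from the model, was -1.91 ± 0.24 (edgeR's quasi-likelihood test with Benjamini-Hochberg adjustment, adjusted p = 0.0105). The call was lost without WT replicate 1 (adjusted p = 0.0501) and without double KO replicate 1 (adjusted p = 0.0556). Recql (chromosome 6, 142350342 to 142387087) stood at 25.7, 28.1 and 29.3 CPM in WT and at 18.7, 35.6 and 24.7 CPM in double KO. The double KO libraries lay on both sides of WT, and the log2 fold change was -0.07 ± 0.20 (edgeR adjusted p = 0.928). Against the libraries labelled Recql KO it was 0.06 (edgeR adjusted p = 0.842). Whole-gene counts cannot reveal a change in the allele that spares the RNA. "Double KO" is therefore used as the name of the libraries labelled so, and every direction below rests on that label.

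The 6 libraries held 52619662 to 57353051 expected counts each, so that 3 counts stood for 0.0523 to 0.0570 CPM. Libraries of the same genotype differed by far more than counting noise (chi-square per degree of freedom 59.3 to 150). Transcripts of the sex chromosomes set libraries apart. The summed level of 4 Y-linked genes (Ddx3y, Eif2s3y, Kdm5d, Uty) was 249, 229 and 257 CPM in WT and 3.36, 249 and 6.25 CPM in double KO. Xist, the RNA that coats the inactive X chromosome, stood at 0.536, 3.08 and 0.152 CPM in WT and at 363, 10.3 and 453 CPM in double KO. Double KO replicate 2 thus resembled the WT libraries in these transcripts, and double KO replicates 1 and 3 did not. Genes on X and Y are left out of the genes named below.

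Few transcripts passed the test. Of 14876 genes, 18 (0.121%) were called at an adjusted p under 0.05, 11 higher (0.0739%) and 7 lower (0.0471%) in double KO, and 13 of the 18 differed by more than 2-fold. Among all genes the median log2 fold change was 0.01, with a median SE of 0.15, and 1605 genes (10.8%) had an unadjusted p under 0.05, 804 higher and 801 lower. The 3 double KO libraries lay wholly above the 3 WT libraries for 1088 genes (7.31%) and wholly below them for 1014 (6.82%). The number of calls differed between the models and sets of libraries used. In a fit to the WT and double KO libraries alone, edgeR called 0 genes, with 1243 at an unadjusted p under 0.05, and the 18 genes had adjusted p-values of 0.0616 to 0.146. DESeq2 on all 12 libraries called 338. With the libraries high in Y-linked transcripts only, which leaves 1 double KO library, 3 genes were called, and Ifi202b was the 1 gene shared with the 18.

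**Figure D1:**
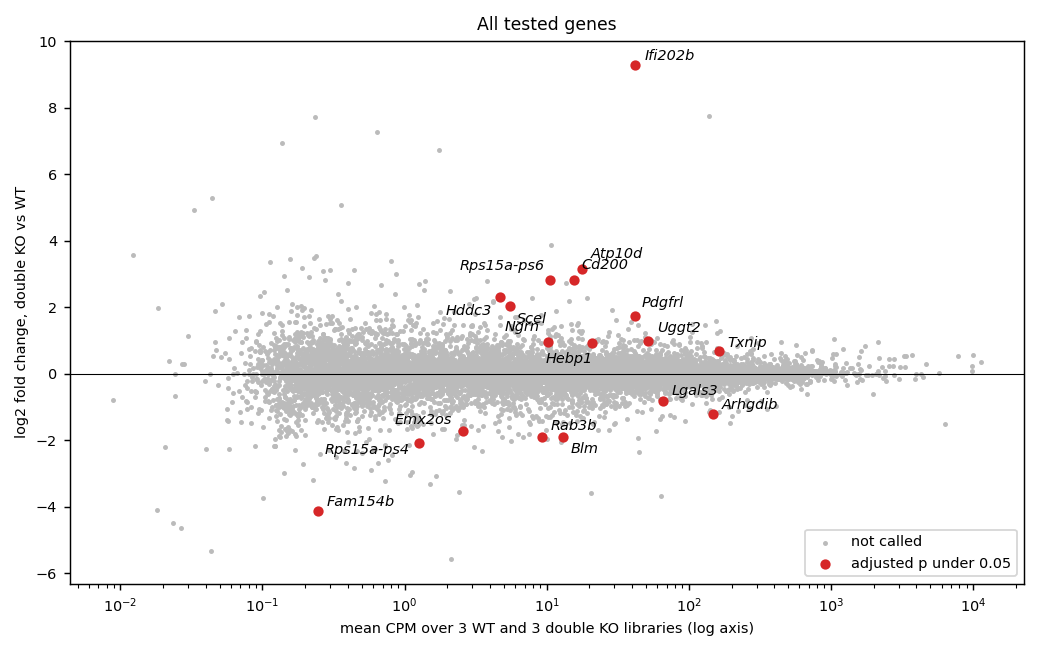
Log2 fold change of double KO against WT (vertical axis) against the mean level over the 6 libraries in CPM (horizontal log axis) for the 14876 tested genes. Red points with names are the 18 called genes, which lie on both sides of 0 and among many uncalled genes of like size, and Ifi202b lies highest at 9.27.

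Called genes stood close to Blm on chromosome 7. Within 5 Mb of Blm, 72 other genes were tested and 3 were called (4.17%), against 0 of the 1024 other genes of the chromosome. The same window held 20 genes (27.8%) with no overlap between the WT and double KO libraries, against 16.4% for the rest of the chromosome and 14.1% for all genes. Within 20 Mb of Blm, 193 other genes were tested, 3 were called (1.55%) and 50 (25.9%) had no overlap. Among the 903 other genes of the chromosome, 0 were called and 15.3% had no overlap. Hddc3, which encodes an NADPH phosphatase related to the stringent-response hydrolases of bacteria, lies -0.148 Mb from the middle of Blm, a minus sign meaning a lower coordinate (chromosome 7, 80343104 to 80350547, plus strand). It stood at 1.35, 2.07 and 1.25 CPM in WT and at 8.32, 7.23 and 7.78 CPM in double KO, and no library of one group came near the other. The log2 fold change was 2.32 ± 0.21 (edgeR adjusted p = 0.0041). The end of Hddc3 overlaps Man2a2, an alpha-mannosidase gene on the other strand, which stood at 97.8, 99 and 103 CPM in WT and at 82.8, 73.6 and 83.5 CPM in double KO. The strand setting of the counting is not given in the sources used here, so reads from the shared end cannot be told apart.

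Ngrn, which encodes neugrin, a factor for the assembly of mitochondrial ribosomes, lies -0.232 Mb from Blm (chromosome 7, 80261215 to 80265374). It stood at 6.62, 7.5 and 6.82 CPM in WT and at 12.6, 13 and 14.6 CPM in double KO, with a log2 fold change of 0.94 ± 0.09 (edgeR adjusted p = 0.00424). Rccd1, between Ngrn and Hddc3, was not called but had no overlap, with 3.22, 3.7 and 3.6 CPM in WT and 5.24, 6.2 and 5.5 CPM in double KO (edgeR adjusted p = 0.0919). On the other side of Blm, Fam154b (now Saxo2, a stabiliser of axonemal microtubules, chromosome 7, 82632960 to 82648528) lies 2.15 Mb away. It was a rare transcript, with 77 counts over the WT libraries and 4 over the double KO libraries, so the ratio of double KO to WT was 0.0519 (exact binomial 95% interval 0.0138 to 0.138, counting error only; edgeR adjusted p = 0.00698). The calls of Hddc3, Ngrn and Fam154b were kept without any one of the 6 libraries. None of the 3 passed the test between double KO and Blm KO (edgeR adjusted p = 0.827, 0.296 and 0.151), and all 3 passed between double KO and Recql KO (edgeR adjusted p = 0.000107, 0.000149 and 0.00119). The Blm KO libraries held Hddc3 at 9.37, 7.05 and 8.26 CPM and Ngrn at 15.2, 14.5 and 15.5 CPM, above every WT library.

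Around Recql on chromosome 6 the picture was looser. Within 20 Mb, 181 genes were tested, 2 were called (1.10%) and 32 (17.7%) had no overlap, against 0 called and 12.7% with no overlap among the 575 other genes of the chromosome. Within 5 Mb, 0 of 41 genes were called by edgeR. Of the 41, 7 (17.1%) had an unadjusted p under 0.05, against 11.3% of the 715 other genes of the chromosome. There was no overlap for 9 of the 41 (21.95%), against 13.4% of those 715 genes and 14.1% of all genes. Pyroxd1, a redox enzyme gene that overlaps Recql on the other strand (chromosome 6, 142345654 to 142363257), stood at 15.9, 12.7 and 14.6 CPM in WT and at 10.8, 10.3 and 12.6 CPM in double KO (log2 fold change -0.36 ± 0.11, edgeR adjusted p = 0.255). All 3 double KO values lay below WT by a small margin, and reads from the overlap cannot be assigned to one strand here.

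Arhgdib lies -5.44 Mb from Recql (chromosome 6, 136923655 to 136941899). It stood at 241, 202 and 176 CPM in WT and at 92.9, 90 and 81 CPM in double KO. The lowest WT library lay well above the highest double KO library, and the log2 fold change was -1.23 ± 0.12 (edgeR adjusted p = 0.00424), a call kept without any one of the 6 libraries. Blm KO (130, 151 and 158 CPM) and Recql KO (194, 192 and 168 CPM) libraries also lay above double KO, and both differences passed (log2 fold change -0.73, adjusted p = 0.0202, and -1.07, adjusted p = 0.00039). Double KO thus had the lowest Arhgdib level of the 4 genotypes. Hebp1, which encodes a heme-binding protein (chromosome 6, 135137522 to 135198022, -7.20 Mb from Recql), was higher in double KO, with 15.2, 12.1 and 16.1 CPM in WT and 28, 23.8 and 30.4 CPM in double KO. Its log2 fold change was 0.92 ± 0.14 (edgeR adjusted p = 0.0467), close to the threshold. The call was kept without double KO replicate 2 and lost without any other single library (edgeR adjusted p = 0.0771 to 0.133) and with a covariate for Y-linked level.

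Hebp1 has a row of neighbours whose libraries did not overlap. Between Gpr19 and Pbp2, 10 genes were tested, of which 6 lay wholly lower and 1 wholly higher in double KO, beside 6.82% and 7.31% of all genes, and only Hebp1 was called. The interval was singled out after its values were seen and ends at genes without overlap, so its counts carry no test. Of the 8 genes between Gpr19 and Pbp2, 3 overlapped. It holds Cdkn1b (chromosome 6, 134920401 to 134925513), which encodes the cell cycle inhibitor p27, at 72.9, 58.5 and 59.8 CPM in WT and 45, 46.3 and 48.2 CPM in double KO (log2 fold change -0.45 ± 0.11, edgeR adjusted p = 0.145). It also holds 1190002F15Rik (now Lockd), a long noncoding RNA just downstream of Cdkn1b, with 3.4, 2.8 and 3.7 CPM in WT and 1.24, 1.67 and 2.03 CPM in double KO (edgeR adjusted p = 0.193). Cdkn1b stood at 18.5, 19.5 and 23.8 CPM in Recql KO, below every double KO library, and that difference passed (log2 fold change 1.17, edgeR adjusted p = 0.000159), as did that from Blm KO (-0.50, edgeR adjusted p = 0.0482).

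**Figure D2:**
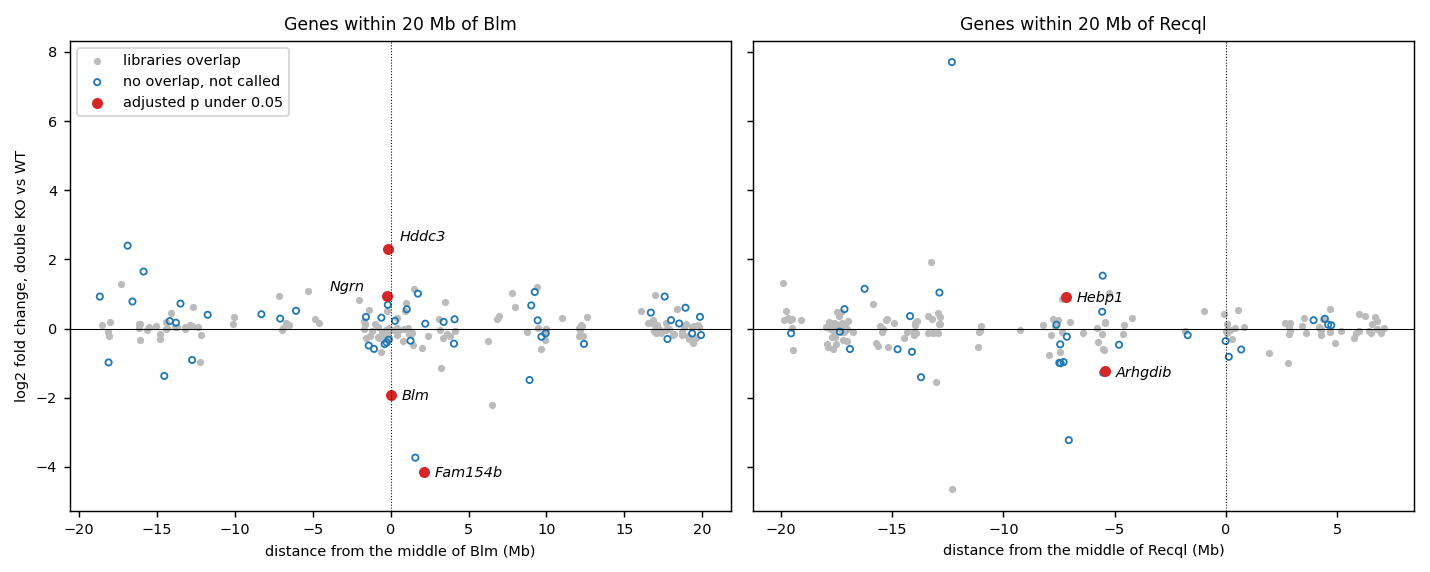
Log2 fold change of double KO against WT (vertical axis) for genes within 20 Mb of Blm (left) and of Recql (right), by distance from the middle of that gene in Mb. Red points are called genes, blue rings are genes whose WT and double KO libraries do not overlap, and grey points overlap; Hddc3, Ngrn and Fam154b lie within 5 Mb of Blm, and Arhgdib and Hebp1 lie more than 5 Mb from Recql.

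Against the single KO groups the 18 genes were divided as follows. Of all tested genes, 1.96% were called between double KO and Blm KO (0.934% higher and 1.02% lower in double KO) and 24.7% between double KO and Recql KO (13.2% higher and 11.6% lower). Of the 18, 6 differed from Blm KO and 16 from Recql KO, and 5 (Arhgdib, Scel, Lgals3, Uggt2 and Emx2os) differed from WT and from both single KO groups. These comparisons share the double KO libraries with the comparison to WT, so the counts are not independent of it.

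Scel, which encodes sciellin, a precursor of the cornified envelope of the skin (chromosome 14, 103513342 to 103612797), was highest in double KO. It stood at 1.63, 2.9 and 1.97 CPM in WT and at 8.81, 10.3 and 7.36 CPM in double KO, with a log2 fold change of 2.02 ± 0.28 (edgeR adjusted p = 0.0176). Every Blm KO library (1.17, 2.09 and 1.21 CPM) and every Recql KO library (0.927, 0.792 and 0.737 CPM) lay below 3 CPM, and double KO differed from both (log2 fold change 2.56, adjusted p = 0.00399, and 3.42, adjusted p = 0.000114). The call against WT was lost without WT replicate 1 (adjusted p = 0.0923), WT replicate 3 (0.133), double KO replicate 1 (0.0605) or double KO replicate 2 (0.0587). Lgals3, which encodes galectin-3, a lectin that binds beta-galactosides (chromosome 14, 47367751 to 47386160), was lowest in double KO. It stood at 81.1, 78.5 and 90.6 CPM in WT and at 50.8, 46.3 and 45.5 CPM in double KO, with no overlap (log2 fold change -0.81 ± 0.11, edgeR adjusted p = 0.0163). The Blm KO libraries held 85.3, 91.1 and 109 CPM and the Recql KO libraries 63, 76.4 and 74.7 CPM, and double KO differed from both (log2 fold change -1.001, adjusted p = 0.00392, and -0.59, adjusted p = 0.00388). Its call against WT was lost without WT replicate 1 (adjusted p = 0.0501), WT replicate 3 (0.095), double KO replicate 2 (0.0593) or double KO replicate 3 (0.0813).

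Uggt2 and Emx2os stood between WT and Blm KO. Uggt2, which encodes a folding sensor that re-glucosylates glycoproteins in the endoplasmic reticulum (chromosome 14, 118985039 to 119099430), stood at 40.7, 28.5 and 34.1 CPM in WT, 60.5, 76.3 and 68.3 CPM in double KO and 99.8, 117 and 111 CPM in Blm KO. The 3 groups did not overlap, with a log2 fold change of 0.99 ± 0.13 against WT (edgeR adjusted p = 0.0162) and -0.68 against Blm KO (adjusted p = 0.0307). The call against WT was lost without WT replicate 3 (adjusted p = 0.095) or double KO replicate 3 (0.0577). Emx2os, a noncoding RNA antisense to the homeobox gene Emx2 (chromosome 19, 59425104 to 59458635), stood at 4.16, 3.89 and 3.81 CPM in WT, 1.15, 0.931 and 1.52 CPM in double KO and 0.525, 0.615 and 0.409 CPM in Blm KO. The log2 fold change was -1.72 ± 0.21 against WT (edgeR adjusted p = 0.00839) and 1.21 against Blm KO (adjusted p = 0.027), and the call against WT was kept without any one library. Emx2 itself held 20.8, 24.3 and 12.5 CPM in WT and 14.6, 16.9 and 13 CPM in double KO and was not called (log2 fold change -0.37, edgeR adjusted p = 0.677). The 2 genes overlap on opposite strands, so reads from the overlap may be split between them.

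A larger set of called genes was not separated from Blm KO. Cd200, which encodes a membrane glycoprotein that engages an inhibitory receptor on myeloid cells (chromosome 16, 45382135 to 45409053), stood at 3.23, 3.3 and 5.02 CPM in WT and at 37.1, 21 and 24.1 CPM in double KO (log2 fold change 2.83 ± 0.30, edgeR adjusted p = 0.00561). The 3 Blm KO libraries held 15.4, 21.3 and 13.2 CPM, and the difference of double KO from them did not pass (log2 fold change 0.72 ± 0.28, adjusted p = 0.16). Pdgfrl, which encodes a protein resembling the ligand-binding part of the PDGF receptor (chromosome 8, 40926212 to 40990785), stood at 22.5, 18.7 and 16.7 CPM in WT and at 53.7, 55.1 and 82.8 CPM in double KO (log2 fold change 1.73 ± 0.19, edgeR adjusted p = 0.00585). Blm KO held 75.5, 73.7 and 70.5 CPM, inside the range of double KO, and Recql KO 4.95, 5.92 and 7.23 CPM, below every WT library. The calls of Cd200 and Pdgfrl against WT were kept without any one library.

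Ifi202b gave the widest difference. It belongs to the Ifi200 cluster of interferon-inducible genes for DNA-binding proteins, its expression is known to differ between inbred mouse strains, and its relatives in the cluster are near-identical in places, so reads assigned to it are uncertain (chromosome 1, 173962568 to 173982744). It held 7, 12 and 3 counts in the WT libraries (0.129, 0.207 and 0.0569 CPM) and 9529, 3166 and 879 counts in the double KO libraries (180, 55.6 and 16.1 CPM). Every double KO library was far above WT, but the 3 differed widely among themselves, and the log2 fold change was 9.27 ± 1.03 (edgeR adjusted p = 0.00635). Blm KO stood at 69.6, 32.6 and 46.9 CPM and was not told apart from double KO (adjusted p = 0.494). The call against WT was lost by a small margin without WT replicate 1 (adjusted p = 0.0501) and without WT replicate 3 (0.0631). Atp10d, which encodes a flippase that moves lipids across membranes and is annotated as a polymorphic pseudogene in the reference used here (chromosome 5, 72203329 to 72298775), stood at 3.47, 3.49 and 3.7 CPM in WT and at 44.4, 16.9 and 33.6 CPM in double KO. No double KO library overlapped WT (log2 fold change 3.15 ± 0.37, edgeR adjusted p = 0.00839), Blm KO held 16.4, 28.4 and 13.9 CPM, and the call against WT was lost without WT replicate 1 (adjusted p = 0.0556) or WT replicate 3 (0.0771).

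A pair of processed pseudogenes of Rps15a, which encodes a protein of the small ribosomal subunit, moved in opposite directions. Their sequences are shown because each is so close to Rps15a that a short read can often fit more than one of the 3. Over 60 bases of the coding sequence of Rps15a (bases 105 to 164, counted from 1 at the A of the start codon, from GENCODE M21 transcripts), capitals mark the bases at which at least one of the pseudogenes differs from Rps15a, and in the pseudogenes the changed bases.
Rps15a: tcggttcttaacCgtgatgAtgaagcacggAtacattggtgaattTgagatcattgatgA
Rps15a-ps4: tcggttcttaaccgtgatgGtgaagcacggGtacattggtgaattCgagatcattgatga
Rps15a-ps6: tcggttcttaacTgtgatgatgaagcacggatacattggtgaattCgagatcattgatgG
Rps15a-ps4 carries A124G, A135G and T150C in this stretch and Rps15a-ps6 carries C117T, T150C and A164G. Over the whole coding sequence Rps15a-ps4 differs from Rps15a at 9 of 390 aligned bases (97.69% identity) and Rps15a-ps6 at 5 of 393 (98.73%).

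Rps15a-ps4 (chromosome 4, 132219988 to 132220489; RefSeq gives Lethe as another name) stood at 1.68, 2.06 and 2.37 CPM in WT and at 0.509, 0.544 and 0.365 CPM in double KO (log2 fold change -2.10 ± 0.29, edgeR adjusted p = 0.0176). Rps15a-ps6 (chromosome 11, 6172644 to 6173036) stood at 4.64, 1.5 and 1.73 CPM in WT and at 16.5, 16.1 and 22.4 CPM in double KO (log2 fold change 2.80 ± 0.44, edgeR adjusted p = 0.0467). Neither pair of groups overlapped, and neither pseudogene was told apart from Blm KO (adjusted p = 0.759 and 0.993). Rps15a itself held 369.6, 296.5 and 311.5 CPM in WT and 327.1, 300.1 and 399.5 CPM in double KO, and was not called (edgeR adjusted p = 0.866). The expected counts of all 3 were fractional in all 12 libraries, as RSEM gives where reads fit more than one transcript, so the values of the pseudogenes are uncertain. The call of Rps15a-ps4 was lost without WT replicate 3 or any double KO library (adjusted p = 0.0564 to 0.103), and that of Rps15a-ps6 was lost without any single library other than WT replicate 1 (0.073 to 0.253) and also with no filter on low counts.

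Rab3b and Txnip did not pass the test between double KO and Recql KO. Rab3b, which encodes a GTPase of regulated exocytosis (chromosome 4, 108879063 to 108943324), stood at 13.5, 12.6 and 17.8 CPM in WT, 4.13, 3.86 and 3.64 CPM in double KO and 3.56, 3.99 and 5.37 CPM in Recql KO. Blm KO, at 8.66, 18.6 and 15.1 CPM, lay above double KO (log2 fold change -1.87, adjusted p = 0.013), and the difference from WT was -1.92 ± 0.26 (edgeR adjusted p = 0.0176). Txnip, which encodes an arrestin-like protein that binds thioredoxin and limits glucose uptake (chromosome 3, 96557957 to 96561883), stood at 119, 124 and 131 CPM in WT and at 209, 210 and 182 CPM in double KO. Its log2 fold change was 0.68 ± 0.09 (edgeR adjusted p = 0.0166), with Blm KO at 165 to 210 CPM and Recql KO at 220 to 227 CPM, and it did not pass against either (adjusted p = 0.601 and 0.223). The call of Rab3b was kept only without WT replicate 2 and that of Txnip only without double KO replicate 3; without any other single library the adjusted p was 0.0556 to 0.0952 for Rab3b and 0.0593 to 0.0965 for Txnip.

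**Figure D3:**
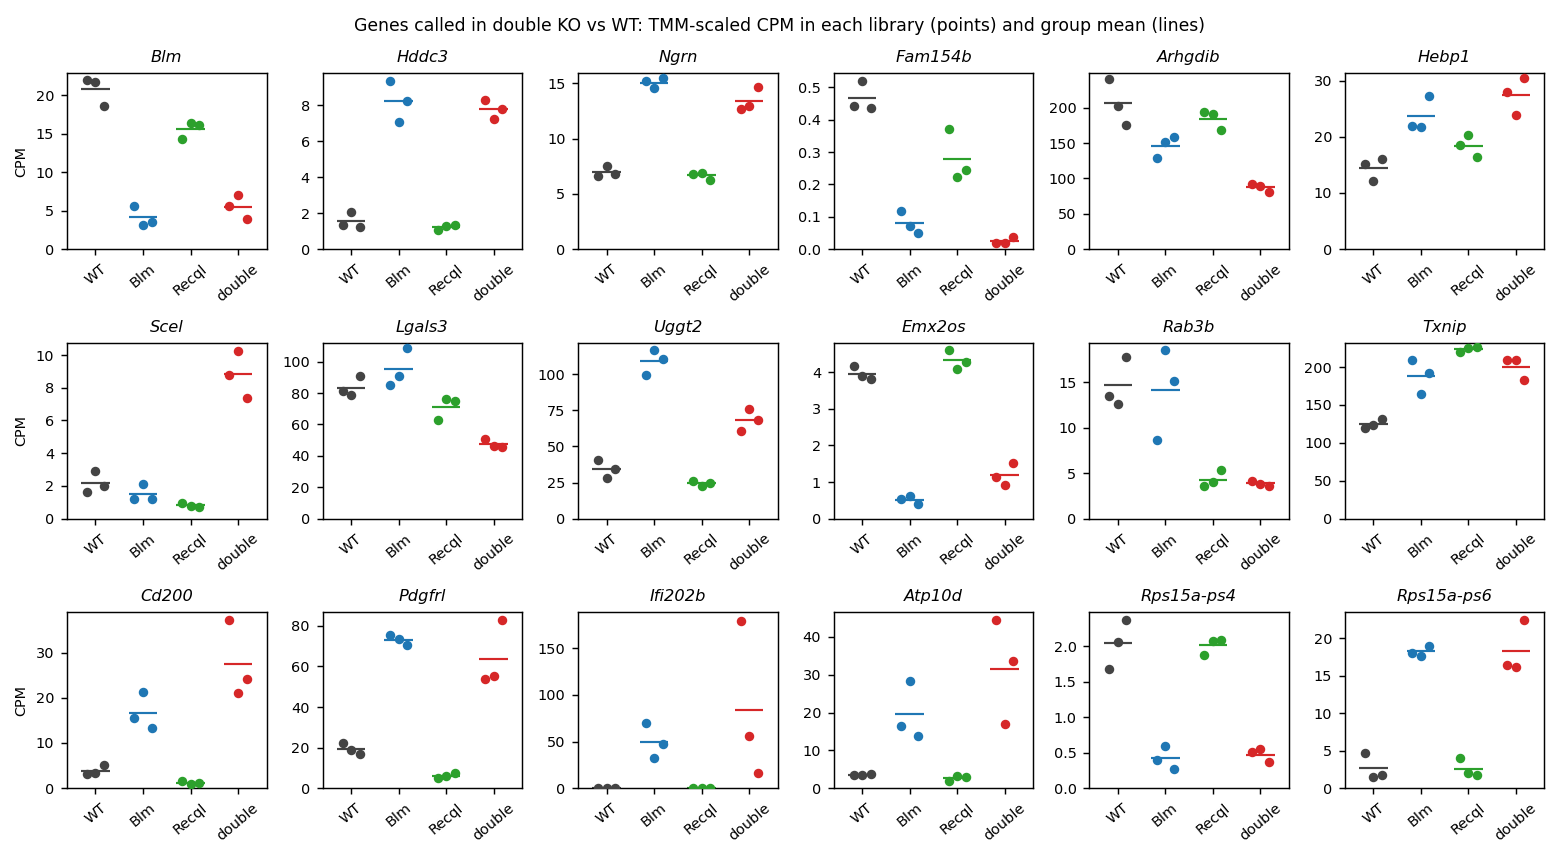
Levels in CPM of the 18 called genes in each of the 12 libraries (points) with group means (lines), by genotype, each panel on its own linear axis from 0. Double KO lies near Blm KO for Hddc3, Ngrn and the Rps15a pseudogenes, near Recql KO for Rab3b, and apart from all other groups for Scel, Lgals3 and Arhgdib.

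Gene lists for helicase partners, repair, the cell cycle and fibroblast states were then followed. Of all members of the lists, edgeR called Blm and Ifi202b only, so the lists are described by the number of members whose 3 double KO libraries lay wholly above or below WT, beside the 7.31% above and 6.82% below among all genes, and by the median log2 fold change, which is 0.01 among all genes. Genes named in this way are values and not calls. With any one library left out, fewer libraries have to be apart, and the shares among all genes were 10.8% to 14.5% above and 9.35% to 14.5% below. In bulk RNA, fewer cells of a type and less RNA per cell cannot be told apart.

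Among 19 genes for RecQ helicases and the proteins that work with them, 0 lay wholly above WT and 2 wholly below, and the median was -0.07. Without double KO replicate 2, 10 of 19 (52.6%) lay wholly below, beside 14.5% of all genes, and the median was -0.24. The 2 below in all libraries were Blm and Wrn, the helicase lost in Werner syndrome, which stood at 44.1, 38.5 and 38.4 CPM in WT and 36.7, 31.7 and 33.6 CPM in double KO (edgeR adjusted p = 0.341). Top3a, Rmi1 and Rmi2, whose products form a complex with BLM, had log2 fold changes of 0.09, -0.06 and -0.14. For repair by homologous recombination and the Fanconi anemia pathway, 3 of 31 genes lay wholly below WT and 0 above, with a median of -0.13. Without double KO replicate 2 this was 16 of 31 (51.6%) with a median of -0.29, and without double KO replicate 3 the median was -0.05. Fanci, which encodes a clamp subunit loaded at DNA crosslinks and lies -1.07 Mb from Blm, on the side of Hddc3, stood at 14, 14.1 and 14.4 CPM in WT and 10.6, 11.2 and 6.52 CPM in double KO (edgeR adjusted p = 0.358). Among 28 genes of excision, mismatch and end-joining repair, 1 lay wholly above and 1 wholly below, with a median of 0.02, and 7 lay below without double KO replicate 2. Among 18 genes of checkpoint and damage signalling, 1 lay wholly below WT, Mdc1, the adaptor that reads phosphorylated H2AX, at 85.5, 83 and 82.2 CPM in WT and 72.7, 80.6 and 57.1 CPM in double KO (edgeR adjusted p = 0.486).

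Genes of DNA synthesis and division separated the double KO libraries from each other rather than from WT. Of 44 replication genes 40 had a negative log2 fold change, with a median of -0.13, but only 2 lay wholly below WT, and of 32 genes of G2 and mitosis 31 were negative, with a median of -0.24, and 0 lay wholly below. Within the lists, the median distance from the WT mean on the log2 scale was -0.32, 0.18 and -0.72 for G2 and mitosis genes in double KO replicates 1, 2 and 3, and -0.23, 0.24 and -0.51 for replication genes. Replicate 2 was thus above the WT mean and replicates 1 and 3 below it. Cdc20, which activates the anaphase-promoting complex, stood at 52.8, 75.9 and 69 CPM in WT and 48.9, 61.3 and 39.2 CPM in double KO, and Rrm2, a subunit of ribonucleotide reductase, at 132, 182 and 144 CPM and 99.9, 151 and 70.5 CPM (edgeR adjusted p = 0.463 and 0.459). Without double KO replicate 2 the medians were -0.51 and -0.36, and 28 of 32 mitotic genes (87.5%) and 26 of 44 replication genes (59.1%) lay wholly below WT, where 14.5% of all genes did.

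Sterol synthesis genes showed the same division between libraries, with medians of -0.98, 0.51 and -0.50 in double KO replicates 1, 2 and 3. Over the 3 replicates 1 of 24 lay wholly below WT, and without double KO replicate 2 all 24 did, with a list median of -0.72. Cyp51, which encodes lanosterol demethylase, stood at 345, 247 and 201 CPM in WT and at 129, 348 and 146 CPM in double KO. Chromatid cohesion and condensin genes had a median of -0.14, with 2 of 30 wholly below WT, and without double KO replicate 2 the median was -0.29 and 21 of 30 lay below. Double KO replicate 2 is also the library high in Y-linked transcripts, and the part of that difference in these values was not tested.

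Genes of p53 signalling and cell cycle arrest gave mixed values. Trp53 stood at 99.4, 98.9 and 88.4 CPM in WT and 84.9, 95.6 and 87.2 CPM in double KO (log2 fold change -0.10, edgeR adjusted p = 0.693). Cdkn1a, the p53 target that encodes p21, stood at 301, 347 and 363 CPM in WT and 481, 374 and 524 CPM in double KO, with no overlap (0.45 ± 0.15, edgeR adjusted p = 0.328). Pmaip1, which encodes the pro-apoptotic protein NOXA, stood at 51.3, 80 and 86.5 CPM in WT and 124, 121 and 113 CPM in double KO (0.72, edgeR adjusted p = 0.138). Of 32 p53 targets 5 lay wholly above WT (15.6%) and 1 wholly below, with a list median of 0.04. The number above was 12 (37.5%) without double KO replicate 2 and 5 to 7 without any other single library. The median turned to -0.02 without double KO replicate 3, to -0.09 with a covariate for Y-linked level and to -0.15 with the libraries high in Y-linked transcripts only. Among 8 CDK inhibitor genes 1 lay above, Cdkn1a, and 3 below: Cdkn1b, described above, Cdkn1c and Cdkn2c. Cdkn2a, the locus of p16 and p19ARF and a marker of senescence, stood at 15.3, 19.2 and 17.5 CPM in WT and 21.7, 15.2 and 27.5 CPM in double KO (0.31, edgeR adjusted p = 0.737), a difference that turned to -0.06 with a covariate for Y-linked level and to -0.20 with the libraries high in Y-linked transcripts only.

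Interferon-stimulated genes were high in a single library. Of 40 such genes 37 had a positive log2 fold change and the list median was 0.64, yet 0 lay wholly above WT and 0 wholly below. The median distance from the WT mean was 1.97 in double KO replicate 1, -0.44 in replicate 2 and -1.06 in replicate 3. Trim30a, an interferon-induced regulator of signalling, stood at 3.64, 8.92 and 2.96 CPM in WT and at 64.5, 3.44 and 2.65 CPM in double KO. Without double KO replicate 1 the list median was -0.93, and 15 of the 40 genes (37.5%) lay wholly below WT, beside 11.3% of all genes. The guanylate-binding and immunity-related GTPases (median 0.85, and -0.76 without that library), the genes of MHC class I presentation (0.34 and -0.30) and the Ifi200 cluster (0.81 and -0.66) also changed the sign of their median. With double KO replicate 1 left out, 4 of 16, 4 of 15 and 3 of 11 tested genes of these lists lay wholly below WT. Of the 11 tested genes of the Ifi200 cluster 2 lay wholly above WT and 1 wholly below. Ifi202b was one of those above, and its log2 fold change stayed between 8.04 and 9.77 without any one library. The other was Aim2, a cytosolic DNA sensor that starts the inflammasome, at 0.222, 0.138 and 0.227 CPM in WT and 0.283, 0.492 and 0.256 CPM in double KO (edgeR adjusted p = 0.64). These are low levels, as 3 counts stood for 0.0523 to 0.0570 CPM. The highest WT value (0.227) and the lowest double KO value (0.256) of Aim2 lay close together. Mnda was the member below, at 34.7, 48.4 and 24.7 CPM in WT and 21.6, 9.69 and 12.8 CPM in double KO (edgeR adjusted p = 0.143). Gbp2b held 2 counts in each WT library and 0 in each double KO library, too few to compare. Sensors of cytosolic nucleic acid were near WT, with a median of -0.03 over 15 genes, 1 of them wholly above.

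A single WT library weighed on the inflammatory genes. The 32 genes of NF-kB and the secretory inflammatory response had a median of -0.33, with 1 wholly above WT and 4 wholly below. Cxcl1, a neutrophil chemokine gene, stood at 101, 7 and 6.54 CPM in WT and 3.68, 3.16 and 2.54 CPM in double KO, and Cxcl5 at 308, 22.8 and 22.3 CPM and 13.2, 5.79 and 8.6 CPM (edgeR adjusted p = 0.172 and 0.306). WT replicate 1 was far above the other WT libraries for both, and without it the list median was 0.04. Il33, an alarmin cytokine gene, was the member wholly above WT, at 1.35, 1.52 and 1.33 CPM in WT and 5.36, 5.62 and 3.73 CPM in double KO (log2 fold change 1.81 ± 0.46, edgeR adjusted p = 0.172).

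**Figure D4:**
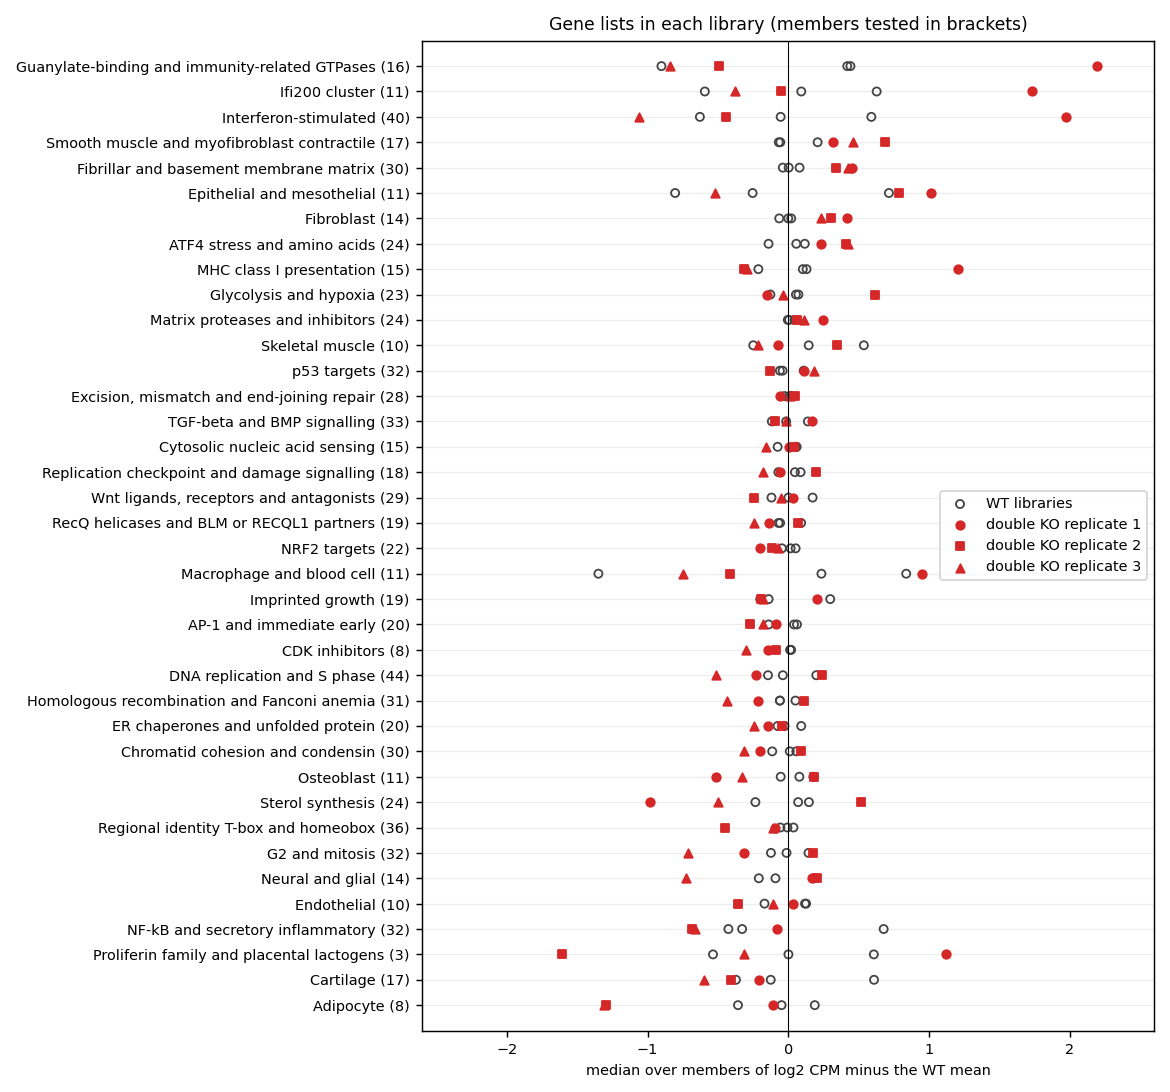
Each row is a gene list with its number of tested members, and each point is the median over the members of the log2 CPM of 1 library minus the WT mean (horizontal axis). Open rings are the 3 WT libraries and red symbols the 3 double KO libraries; interferon lists are high in double KO replicate 1 (1.97), sterol synthesis differs in sign between replicates 1 and 2, and the matrix and contractile lists lie above all WT libraries in every double KO library.

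Genes of the extracellular matrix had the largest share of members wholly above WT among the 39 lists. Of 30 genes for fibrillar and basement membrane matrix 19 (63.3%) lay wholly above WT and 0 below, with a median of 0.46 and with list medians of 0.45, 0.34 and 0.42 in double KO replicates 1, 2 and 3. The summed level was 70115 to 71160 CPM in WT and 85068 to 97370 CPM in double KO, and the share wholly above WT was 63.3% to 70% without any one library, where it was 10.8% to 14.5% among all genes. No single gene passed the test in edgeR, where 16 were higher at an unadjusted p under 0.05, beside 804 of all 14876 genes. DESeq2 called 7, all higher, beside 160 called higher among all genes. Without WT replicate 2 edgeR called 3, all higher, beside 16 called higher among all genes. Col4a2, a chain of basement membrane collagen IV, stood at 755, 1090 and 888 CPM in WT and at 1641, 1414 and 1505 CPM in double KO (log2 fold change 0.74 ± 0.13, edgeR adjusted p = 0.0673). Loxl2, a crosslinking enzyme of collagen, stood at 558, 908 and 601 CPM in WT and at 1335, 1790 and 1123 CPM in double KO (1.04 ± 0.20, edgeR adjusted p = 0.0919). The lowest double KO library of each lay above the highest WT library. Eln (elastin) had a log2 fold change of 1.25, Tnc (tenascin C) of 0.95, Fn1 (fibronectin) of 0.56 and Col1a1 of 0.35, while Lox and Loxl1, further crosslinking enzymes, had -0.10 and -0.06. Against Blm KO, 5 of the 30 genes were called and all 5 were higher in double KO, among them Col4a2 (0.62, adjusted p = 0.0385), Loxl2 (1.24, adjusted p = 0.0192) and Tnc (1.31, adjusted p = 0.0324), although the list median against Blm KO was -0.01. Against Recql KO, 16 were called higher. Among all genes, 0.934% were called higher against Blm KO and 13.2% against Recql KO.

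Contractile genes of smooth muscle and myofibroblasts also had many members wholly above WT. Of 17 genes 9 (52.9%) lay wholly above WT and 0 below, with a median of 0.55 and a share of 52.9% to 70.6% without any one library. Their summed level was 11476 to 13613 CPM in WT and 15332 to 17864 CPM in double KO. Against Blm KO their list median was 0.61, unlike that of the matrix list, and edgeR called 0 of them. Myh11, smooth muscle myosin heavy chain, stood at 50.9, 84.8 and 30.1 CPM in WT and at 134, 203 and 129 CPM in double KO (log2 fold change 1.49 ± 0.47, edgeR adjusted p = 0.291). Acta2, smooth muscle actin and the usual marker of myofibroblasts, had a log2 fold change of 0.55 and Tagln (transgelin) of 0.49 (edgeR adjusted p = 0.454 and 0.505). The edgeR test called 0 of the 17, with 5 higher at an unadjusted p under 0.05, beside 804 of all 14876 genes. DESeq2 called 0. With a covariate for Y-linked level edgeR called 1, higher in double KO, beside 22 called higher among all genes. Ctgf, a matricellular gene under YAP, had 0.23. Matrix proteases and their inhibitors were wholly above WT in 4 of 24 genes (16.7%), and in 8 without double KO replicate 2, among them Mmp14, the membrane-bound collagenase, at 700, 712 and 722 CPM in WT and 921, 904 and 922 CPM in double KO (0.36 ± 0.10, edgeR adjusted p = 0.226).

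Amino acid and stress genes under ATF4, the transcription factor of the integrated stress response, had many members wholly above WT. Of 24 genes 11 (45.8%) lay wholly above WT, beside 7.31% of all genes, and 1 below, with a median of 0.36. EdgeR called 0 of them, with 14 higher at an unadjusted p under 0.05, beside 804 of all 14876 genes. DESeq2 called 7, all higher, beside 160 called higher among all genes. Atf4 itself stood at 124, 151 and 147 CPM in WT and at 183, 213 and 190 CPM in double KO (log2 fold change 0.47 ± 0.09, edgeR adjusted p = 0.0919). Slc7a5, an amino acid transporter, had a log2 fold change of 0.64, Trib3, a pseudokinase that restrains ATF4, one of 0.76, and Asns, asparagine synthetase, one of 0.38. The member wholly below WT was Aldh18a1, an enzyme of proline synthesis, with -0.11. Chaperones of the endoplasmic reticulum, which answer to other arms of the unfolded protein response, lay the other way: 5 of 20 (25%) were wholly below WT and 0 above, with a median of -0.14, and 11 lay below without double KO replicate 2. Creld2 stood at 58.4, 60.9 and 67.9 CPM in WT and at 50, 49.7 and 44 CPM in double KO (-0.38 ± 0.08, edgeR adjusted p = 0.1). Of 22 targets of NRF2, the regulator of antioxidant genes, 6 (27.3%) lay wholly below WT and 0 above, with a median of -0.08. Gstm1, a glutathione transferase, stood at 57.7, 40.6 and 47.4 CPM in WT and at 31.1, 27.1 and 37 CPM in double KO (edgeR adjusted p = 0.133).

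**Figure D5:**
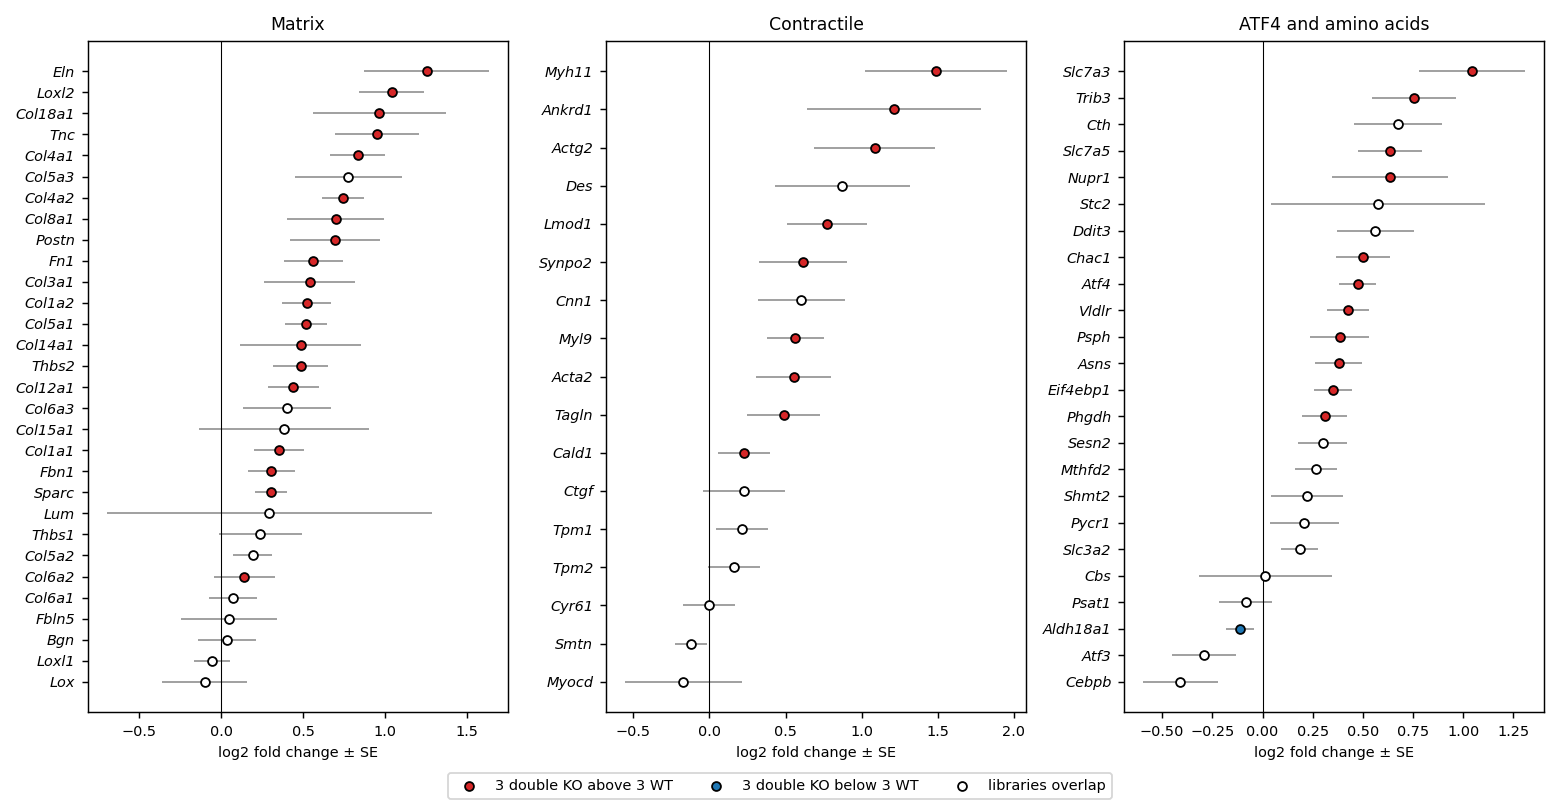
Log2 fold change of double KO against WT with its SE (horizontal axis) for each tested member of the matrix, contractile and ATF4 lists. Filled red points are members whose 3 double KO libraries all lie above the 3 WT libraries (19 of 30, 9 of 17 and 11 of 24), the blue point lies below, and open points overlap; none passed the adjusted threshold.

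The remaining growth and metabolic lists had few members wholly on one side of WT. Of 23 glycolysis and hypoxia genes 2 lay wholly above WT and 1 below, with a median of 0.17. Their median distance from the WT mean was 0.62 in double KO replicate 2, and without that library the list median was -0.08. Of 20 AP-1 and immediate early genes, which answer to serum and other stimuli within minutes, 0 lay above and 1 below (median -0.12), and 5 lay below without double KO replicate 1 or 2. Of 19 imprinted growth genes 0 lay above and 2 below (median -0.11, and 0.07 without WT replicate 3). One was Peg10, a retrotransposon-derived gene of the placenta, at 182, 122 and 210 CPM in WT and 89.6, 85.5 and 103 CPM in double KO (edgeR adjusted p = 0.231). All 3 double KO libraries of Peg10 lay below the lowest WT library. The 3 tested proliferin and placental lactogen genes overlapped between the groups, with log2 fold changes from -1.19 to 4.93 and median distances from the WT mean of 1.12, -1.61 and -0.32 in double KO replicates 1, 2 and 3.

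Genes of body position and signalling differed one by one. Of 36 regional T-box and homeobox factors 8 (22.2%) lay wholly below WT and 2 above, with a median of -0.22 that was -0.013 without WT replicate 3. EdgeR called 0, with 1 higher and 4 lower at an unadjusted p under 0.05, beside 804 and 801 of all 14876 genes. Lhx9, a LIM homeobox gene of limb and gonad, stood at 60.4, 47.2 and 46.2 CPM in WT and at 37, 35.6 and 33.1 CPM in double KO (log2 fold change -0.54 ± 0.18, edgeR adjusted p = 0.319). Tbx20, a T-box gene of the heart, lay the other way, at 0.573, 2.32 and 1.93 CPM in WT and 6.54, 2.49 and 4.07 CPM in double KO (1.44, edgeR adjusted p = 0.373). Among 29 Wnt genes 2 lay wholly above and 4 below. The ligand Wnt9a stood at 5.18, 8.84 and 7.51 CPM in WT and at 12.1, 19.8 and 15.4 CPM in double KO (1.14 ± 0.21, edgeR adjusted p = 0.0812), and the receptor Fzd5 at 83.1, 69.5 and 84 CPM and 49.9, 36.6 and 54.2 CPM (-0.75 ± 0.18, edgeR adjusted p = 0.141). Both differed from Blm KO (adjusted p = 0.0175 and 0.013). Among 33 genes of TGF-beta and BMP signalling 5 lay wholly above and 3 below, with Gdf5, a growth factor of joints, at 0.591, 1 and 1.99 CPM in WT and 0.207, 0.299 and 0.274 CPM in double KO (edgeR adjusted p = 0.185).

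Markers showed fibroblasts in all 6 libraries, with lower summed levels for the lists of other cell types. The 14 fibroblast markers summed to 25350 to 27265 CPM in WT and 30560 to 34772 CPM in double KO, with 5 wholly above WT (among them Col1a1, Col1a2 and Col3a1, which are also in the matrix list) and 1 below, S100a4, at 411, 430 and 391 CPM in WT and 215, 246 and 241 CPM in double KO (log2 fold change -0.81, edgeR adjusted p = 0.184). Pdgfrb, a receptor of pericytes and fibroblasts, stood at 355, 395 and 352 CPM in WT and 521, 477 and 523 CPM in double KO (0.47, edgeR adjusted p = 0.1). Macrophage and blood markers summed to 8.15 to 21.1 CPM in WT and 8.20 to 20.2 CPM in double KO, skeletal muscle markers to 24.5 to 62.5 and 41.2 to 94.3 CPM, endothelial markers to 95.3 to 102 and 104 to 154 CPM, and epithelial and mesothelial markers to 46.2 to 153 and 88.4 to 141 CPM. In these lists 0 members lay wholly above WT. Wholly below it lay 2 of 11 tested macrophage and blood genes (18.2%) and 1 of 10 endothelial genes (10%). The same held for 1 of 11 epithelial and mesothelial genes (9.09%) and 0 of 10 muscle genes, beside 6.82% of all genes. Other lists summed to more. Cartilage genes summed to 1341 to 3082 CPM in WT and 879 to 2047 CPM in double KO. Bone genes summed to 464 to 742 and 336 to 700 CPM, and neural and glial genes to 208 to 230 and 250 to 313 CPM. The muscle regulators Myod1, Myf5 and Myog, the globin genes Hba-a1 and Hbb-bt and the adipocyte gene Adipoq held at most 11 counts in any of the 6 libraries and were not tested.

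Adipocyte, cartilage and bone genes had negative medians that differed between libraries. The 8 tested adipocyte genes all had negative log2 fold changes (median -0.62), and 3 lay wholly below WT (37.5%); their summed level was 124 to 165 CPM in WT and 70.0 to 134 CPM in double KO. Fabp4, a fatty acid carrier, stood at 21.3, 10.5 and 13.5 CPM in WT and at 4.13, 4.14 and 5.72 CPM in double KO (-1.70 ± 0.38, edgeR adjusted p = 0.123), and Pparg, the adipocyte master regulator, at 15.1, 12.3 and 18.7 CPM and 11, 2.67 and 5.59 CPM (-1.26, edgeR adjusted p = 0.388). The median distance of the list from the WT mean was -0.11 in double KO replicate 1 and -1.30 and -1.31 in replicates 2 and 3, and the list median was -1.12 without double KO replicate 1 and -0.37 without double KO replicate 2. Of 17 cartilage genes 1 lay wholly above and 2 below, with a median of -0.39, and this rested on WT replicate 3, without which the median was -0.07; Col10a1 held 501 CPM there against 198 and 170 CPM in the other WT libraries. Of 11 bone genes 3 lay wholly below, with a median of -0.15 that turned to 0.07 without double KO replicate 1, to 0.08 with a covariate for Y-linked level and to 0.15 with the libraries high in Y-linked transcripts only. Among the 3 was Runx2, the osteoblast regulator, at 87.1, 77.5 and 77.3 CPM in WT and 56.4, 71.1 and 64 CPM in double KO (edgeR adjusted p = 0.281). Among 14 neural genes 2 lay wholly above and 2 below; Map2 stood at 68.4, 35.6 and 51.6 CPM in WT and at 111, 83.1 and 118 CPM in double KO (1.01, edgeR adjusted p = 0.254) and was lower than in Blm KO (-1.61, adjusted p = 0.0306).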

How the data were processed

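The deposited table holds RSEM's expected counts, which estimate how many reads came from each gene; per the submitters' processing notes, Bowtie2 2.1.0 and RSEM 1.2.15 were used with build mm10. The annotation, strand setting and read filters are not given in the sources used here. In a library 17.4% to 20.2% of values were not whole, and counts were rounded. With R 4.3.3 and edgeR 4.0.16, filterByExpr by group kept 14876 genes (99.99% of counts). The model had 1 mean for each genotype and used all 12 libraries (8 residual degrees of freedom, common biological coefficient of variation 0.209), and the contrast was tested with the robust quasi-likelihood test and Benjamini-Hochberg adjustment over all tested genes, called at 0.05. Library totals are given with the results. Levels are TMM-scaled CPM, and distances within gene lists use log2 CPM with a prior count of 2. Counts were simulated for double KO against WT over 14876 genes, with changes placed only in genes of at least 1 CPM on average. Of the changed genes, 36% were recovered at 1.5-fold, 82% at 2-fold and 96% at 4-fold, and 8 of 165 calls were false. With none changed, 0 were called. The simulated counts were drawn independently in each library, without shifts that many genes share within a library. Such shifts were seen in the real libraries, so the shares recovered and false may differ there.

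The comparison, its 39 gene lists and the rule for named genes were chosen with earlier results of these data known. The rule takes Blm, Recql, Trp53, Cdkn1a and Cdkn2a, called autosomal genes of at least 1 CPM with no overlap, called genes within 20 Mb of Blm or Recql, and up to 4 called members of a list or, with none, the 2 of smallest p. Fewer are printed, and other genes printed were picked after their values were seen: Wrn, Top3a, Rmi1, Rmi2, Cyp51, Mnda, Aim2, Cxcl5, Man2a2, Rccd1, Pyroxd1, Gpr19, Pbp2, 1190002F15Rik, Emx2, Rps15a, Col10a1, Cdkn2c, several matrix, contractile and ATF4 genes, and the untested markers. Positions come from GENCODE M21 and RefSeq on mm10 for 14820 tested genes. Alternatives were relative log expression scaling, other filters, DESeq2 1.42.0, a fit on the 2 groups, the replicate number as a block, a covariate for Y-linked level, libraries with over 100 CPM of Y-linked transcripts only, and leaving out each library.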

Additional observations from a re-analysis of the deposited data

How the results depend on the processing

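The count of called genes between double KO and WT was 18 and was 17 to 19 with relative log expression scaling, no filter on low counts, or a filter of CPM above 1 in 3 libraries. It was 338 with DESeq2 (160 higher and 178 lower), 45 with a covariate for Y-linked level, 3 with the libraries high in Y-linked transcripts only, 0 in the fit on the 2 groups compared (1243 at an unadjusted p under 0.05), and 8 to 28 without any one library, with 28 without WT replicate 2 and 8 without WT replicate 3. Of the 18 genes 7 were called in every one of the 6 fits that left out a library, 0 under every alternative run, and 18 kept their direction under every alternative. Between double KO and Blm KO the count was 291 and was 1415 with DESeq2, 8 in the fit on the 2 groups compared and 9 to 585 without any one library. The lowest counts were 9 without Blm KO replicate 3, 15 without double KO replicate 2 and 89 without double KO replicate 1. The highest were 585 without Blm KO replicate 2 and 520 without double KO replicate 3. Between double KO and Recql KO it was 3681 and was 373 with the libraries high in Y-linked transcripts only and 2157 to 3519 without any one library, with 2250 when Recql KO replicate 1 was left out and 2157 for Recql KO replicate 2. The cause of these shifts was not tested.

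The labels do not say whether replicate numbers pair the libraries. Deviations of same-numbered double KO and WT libraries correlated at -0.03, 0.23 and 0.21. Double KO replicates 2 and 3 correlated best with the WT library of the same number, and double KO replicate 1 with WT replicate 2 (0.04). With the replicate number as a block, 50 genes were called between double KO and WT and 762 between double KO and Blm KO, and the calls against WT held 2 matrix genes and 1 ATF4 gene. Of the values for genes and lists under alternatives, those of the 18 called genes included, 2181 of 2366 were counted as the same. A gene counted so if it kept its direction and side of the threshold. A list median did if it moved by less than the spread over the double KO libraries, and a number of called members if it changed little. Genes and lists without a call in either fit also counted, so this share does not measure how well calls were kept. A log2 fold change of double KO against WT changed sign for Trim30a (-0.60 with the libraries high in Y-linked transcripts only, -0.77 without double KO replicate 1), Oas1g (-0.60 and -1.49 under the same settings), Zbp1 (-0.56) and Psmb8 (-0.12) without double KO replicate 1, Kif11 (0.031) and Stard4 (0.33) with the libraries high in Y-linked transcripts only, Cdkn2a (-0.062 with the Y-linked covariate, -0.20 with the libraries high in Y-linked transcripts only) and Recql (0.35 with the libraries high in Y-linked transcripts only, 0.12 without double KO replicate 1). Without any one library the values ran from -0.77 to 2.83 for Trim30a, -1.49 to 3.99 for Oas1g, -0.56 to 3.49 for Zbp1, -0.12 to 1.37 for Psmb8 and -0.35 to 0.12 for Recql. None of these genes was called, and the cause was not tested.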
